A study of Mus musculus with 3 samples.

Results

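The genes of sterol synthesis and cholesterol efflux were examined in RNA bound to chromatin of mouse bone marrow-derived macrophages. They are 33 genes chosen by symbol, and all 33 were found among the 55536 genes of the deposited tables. The list holds 5 regulators of the SREBP system, 18 enzymes that build sterols, 2 genes of sterol transport and storage, 3 fatty acid enzymes and 5 genes of the LXR and efflux arm. There is 1 group of 3 libraries, labelled biological replicates 1 to 3: macrophages grown from C57BL/6J marrow and treated for 25 min with 100 ng/ml Lipid A, a bacterial lipid that signals through the receptor TLR4. Total RNA that stays with chromatin, where nascent transcripts are found, was sequenced once ribosomal RNA had been removed. The labels give 1000 ng of RNA for replicate 1, 250 ng for replicate 2 and 500 ng for replicate 3. They name no genetic change, age or sex, and all 3 libraries carry the same donor label, so separate animals or cultures are not documented and p-values measure only the spread between these samples. No untreated cells are analysed here, so a high level does not mean that a gene was induced.

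Cells hold cholesterol steady with a pair of opposed systems. When sterols are scarce in the endoplasmic reticulum, the escort protein Scap carries the SREBP precursors to the Golgi, where they are cut, and the released factors switch on the enzymes of sterol and fatty acid synthesis. Insig proteins hold Scap back when sterols are plentiful. Oxysterols then activate the LXR nuclear receptors, which switch on the exporters Abca1 and Abcg1. Macrophages take up much cholesterol with engulfed cells and lipoproteins, and are known for strong efflux and ester storage.

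SREBP and LXR act through short DNA elements, and the promoters of the members were searched for an SREBP element and other short patterns. RefSeq promoters of assembly GRCm38.p6, from 250 bases before to 50 after the start, matched 26 of 33 members with 35 promoters. TCACNCCAC, a form of the sterol regulatory element bound by SREBP, was found on either strand in 1 member, Hmgcs1, and in 1.24% of all 32851 promoters. The letters GGTCA repeated after 4 bases were on either strand in none of the 35, and in 0.0457% of all promoters. In the LXR-type element DR4 the 4 bases lie between repeats of AGGTCA, 1 letter longer, so DR4 itself was not searched for. No match says only that these letters were not in this window. Shown here are the 250 bases before the start of Hmgcs1, the only member with the sterol element in its window, and of 2 of the 3 RefSeq starts of Srebf1, those next to the start of an annotated coding transcript. The Srebf1 promoters were chosen after the values were seen. Capitals mark TCACNCCAC and CCAAT, the letters bound by NF-Y, which reads ATTGG on the other strand.
Hmgcs1, chr13:119690101-119690350, plus strand: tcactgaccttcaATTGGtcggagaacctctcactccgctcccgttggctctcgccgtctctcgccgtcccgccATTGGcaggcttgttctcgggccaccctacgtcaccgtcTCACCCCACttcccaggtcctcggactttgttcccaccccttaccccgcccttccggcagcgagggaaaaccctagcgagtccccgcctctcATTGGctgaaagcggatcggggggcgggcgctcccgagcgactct
Srebf1 upstream start, chr11:60220628-60220877, minus strand: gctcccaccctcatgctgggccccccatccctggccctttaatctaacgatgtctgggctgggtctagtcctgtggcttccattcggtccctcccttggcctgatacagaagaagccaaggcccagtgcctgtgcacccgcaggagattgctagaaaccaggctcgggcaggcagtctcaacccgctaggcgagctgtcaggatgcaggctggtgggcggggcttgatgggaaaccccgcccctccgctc
Srebf1 downstream start, chr11:60210472-60210721, minus strand: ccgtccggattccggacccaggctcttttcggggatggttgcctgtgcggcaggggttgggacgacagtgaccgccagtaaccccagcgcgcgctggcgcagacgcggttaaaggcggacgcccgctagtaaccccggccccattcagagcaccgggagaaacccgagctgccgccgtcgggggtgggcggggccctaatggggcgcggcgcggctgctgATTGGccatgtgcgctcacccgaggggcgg

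In Hmgcs1 the sterol element lay 137 to 129 bases before the start, with CCAAT-type letters on both sides of it. The upstream Srebf1 stretch held neither motif, the third and outermost RefSeq promoter of the gene (not shown) held 1 CCAAT, at 166 to 162 bases before its start, and the downstream one held 1, at 30 to 26 bases before its start. CCAAT was present in 14 of the 15 enzyme genes with a promoter, all but Acat2, and in 77.8% of the 18 enzyme promoters, beside 37.4% of all promoters. A CCAAT and its reverse can share bases, as at 62 to 55 bases before the start of Fasn. GGGCGG, the core of Sp1 sites, was in 83.3% of the enzyme promoters, in 35.7% of all promoters and in 59.9% of promoters of genes at 1 TPM or more. CACGTG, an E-box, was in 16.7% of the enzyme promoters (3 of 18), 7.15% of all and 10% of those of genes at 1 TPM or more. These matches are descriptions of letters and no measure of binding.

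The exporters Abca1 and Abcg1 and the storage enzyme Soat1 were at higher levels than each of the 18 enzymes that make sterols. Levels are in TPM, a unit that corrects for gene length and for the total of a library, over genes of at least 300 nt. Of the 33 members 32 had a mean of at least 1 TPM, 21 of at least 10 and 4 of at least 100. Those 4 were Abca1, Soat1, Insig1 and Nr1h2. The median member stood at 12.9 TPM. For comparison, 15332 of 46615 genes of that length reached 1 TPM, with a median of 11.5 TPM among them. The libraries held 13318787, 19162053 and 19147923 gene counts in replicates 1, 2 and 3, of which the members held 0.287%, 0.334% and 0.293%. Genes inside the ribosomal DNA locus took 8.59%, 27.2% and 23.2% of counts, so replicate 1 stood apart from replicates 2 and 3. All 10 macrophage markers checked were at 10 TPM or more, among them Csf1r and Adgre1. Of 31 markers of other cells 29 were below 1 TPM and 13 had no counts. The other 2 were the endothelial marker Kdr, at 6.80, 3.22 and 5.67 TPM, and the neutrophil marker Ngp, with a mean of 1.87. The summed level of the 31 was 10.9, 9.58 and 11.0 TPM in replicates 1, 2 and 3. In the kallisto-type table, a second quantification by the authors, 21 of the 31 were below 1 TPM, 5 were at 0 in all libraries, and the sums were 52.8, 48.9 and 55.5 TPM. The T-cell gene Cd3d was the highest there, at 22.9, 26.2 and 30.4 TPM, and had no counts in the RSEM-type table that the levels come from.

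**Figure D1:**
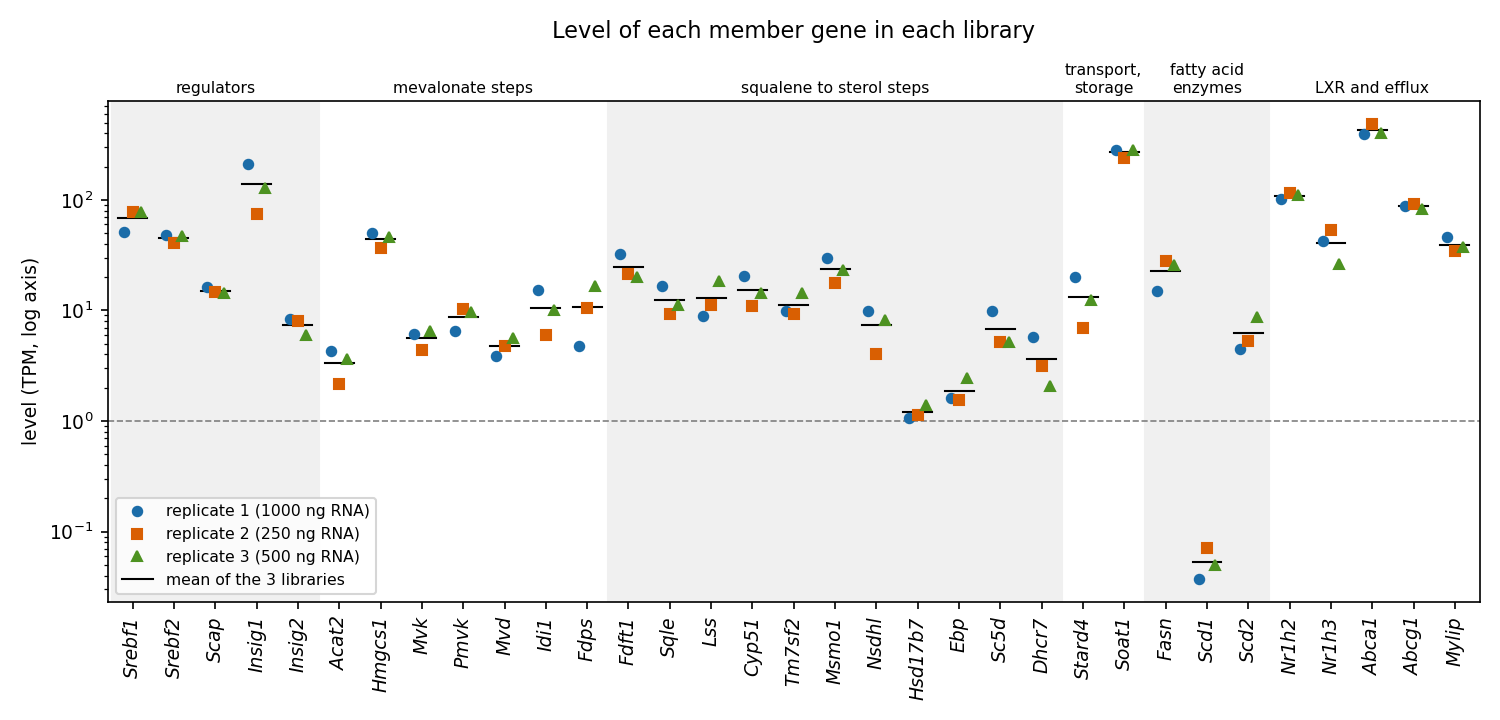
Level of the 33 member genes in TPM (log axis) in each of the 3 libraries, grouped by role, with the mean as a black line and 1 TPM dashed. Abca1 (mean 427 TPM) and Soat1 (269) are highest, the sterol enzymes lie between 1.20 and 44.4, and Scd1 alone is below 1.

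Abca1, which loads cholesterol onto lipid-poor apolipoprotein A-I, was the highest member. It ranked 192 of 46615 genes. Its level was 392 TPM in replicate 1, 490 in replicate 2 and 400 in replicate 3 (427 ± 54.7, SD, n = 3). The gene lies at chr4:53030787-53159895 on the minus strand (mm10). Abcg1, which exports cholesterol to high-density lipoprotein, was measured at 87.3, 91.8 and 82.3 TPM (87.1 ± 4.76, SD, n = 3). The libraries of the 2 transporters did not overlap: Abca1 was higher by 2.27 ± 0.13 (SD, n = 3) in log2(TPM + 1), with each library between 2.15 and 2.40. Mylip, an LXR-induced ubiquitin ligase that limits lipoprotein uptake, had levels of 46.1, 34.4 and 37.4 TPM, all below the lowest level of Abcg1.

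The LXR genes themselves were both present. Nr1h2, which encodes LXR beta and is made in most tissues, was at 101, 116 and 110 TPM (109 ± 7.44, SD, n = 3). Nr1h3, which encodes LXR alpha and is prominent in macrophages and liver, was at 42.0, 52.9 and 26.5 TPM. Every library had more Nr1h2 than Nr1h3, by 1.46 ± 0.48 (SD, n = 3) in log2(TPM + 1). Nr1h2 was steady across libraries (coefficient of variation 6.84%), whereas Nr1h3 varied 2-fold between replicates 2 and 3.

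Soat1, which esterifies cholesterol for storage in lipid droplets, was the second highest member, at 282, 241 and 284 TPM (269 ± 24.1, SD, n = 3). The gene spans chr1:156424525-156474331 (mm10, minus strand). Stard4, a soluble carrier that moves cholesterol between membranes and is an SREBP target, was lower, at 20.0, 6.97 and 12.4 TPM, within the range of the sterol enzymes. The kallisto-type table gave it a mean of 33.3 TPM, 2.53-fold higher. Soat1 exceeded Stard4 in each library of both tables, by 4.36 ± 0.59 (SD, n = 3) in log2(TPM + 1), and by 3.13 ± 0.49 (SD, n = 3) in the kallisto-type table.

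The 18 sterol enzymes had a median of 9.63 TPM, and 9 of them were at 10 TPM or more. Their mean log2(TPM + 1) minus that of Abca1, Abcg1 and Mylip was -3.54 in replicate 1, -3.89 in replicate 2 and -3.44 in replicate 3, so the enzymes were lower in every library. The mean difference in level was -3.62 ± 0.23 (SD, n = 3), or 12.3-fold on that scale, which understates differences of low genes. No p-value is given, because genes are not replicates. No enzyme reached the level of Abcg1 in any library, and Hmgcs1 alone reached that of Mylip. The order of Hmgcs1 and Mylip depends on the table. In the kallisto-type one Hmgcs1 was below Mylip in replicates 1 (49.8 beside 51.9 TPM) and 2 (34.0 beside 39.6), and above it in replicate 3 (45.2 beside 41.0).

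Among the mevalonate enzymes, which turn acetyl-CoA into isoprenoid units, Hmgcs1 stood highest. It makes HMG-CoA and was at 50.3, 36.4 and 46.5 TPM (44.4 ± 7.19, SD, n = 3). Acat2, which joins acetyl-CoA units at the entry of the pathway, was the lowest of the 7, at 4.28, 2.14 and 3.64 TPM. The kinases Mvk and Pmvk had means of 5.65 and 8.80 TPM, and the decarboxylase Mvd 4.79. Idi1, which isomerises isopentenyl diphosphate, was at 15.2, 6.06 and 10.2 TPM, highest in replicate 1. Fdps, which makes farnesyl diphosphate, was lowest there: it was at 4.79, 10.5 and 16.7 TPM, a 3.48-fold range that rests on 36, 91 and 151 counts.

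In the branch from squalene to cholesterol the first enzyme, squalene synthase Fdft1, was at 32.6, 21.2 and 20.3 TPM (24.7 ± 6.86, SD, n = 3). Msmo1, which removes methyl groups from the sterol ring, had a mean of 23.7 TPM, and the ranges of both over libraries overlapped. Their order depends on the table, since in the kallisto-type one Msmo1 had the higher mean, 29.0 TPM beside 20.2. The lanosterol demethylase Cyp51 followed at 20.6, 11.0 and 14.4 TPM, the lanosterol synthase Lss at 8.86, 11.3 and 18.4, and the rate-limiting squalene epoxidase Sqle at 16.7, 9.26 and 11.1. Their libraries overlapped too. The reductase Tm7sf2 had a mean of 11.3 TPM, and Nsdhl and Sc5d, a sterol dehydrogenase and a desaturase, 7.38 and 6.74. The mean was 1.88 TPM for the isomerase Ebp and 1.20 for the ketoreductase Hsd17b7, the lowest of the branch. Their order was reversed in the kallisto-type table, at 1.31 TPM for Ebp and 2.01 for Hsd17b7. The reductase Dhcr7 had a mean of 3.67 TPM, but of 10.6 in the kallisto-type table, near that of Tm7sf2 (10.8) there. Ebp rests on 7, 10 and 14 counts.

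The 5 regulators had a median of 45.4 TPM, above that of the enzymes. Insig1, itself an SREBP target that feeds back on the pathway, was the third member in order of level, at 213, 74.1 and 127 TPM (138 ± 70.1, SD, n = 3), and spans chr5:28071363-28078662 (mm10, plus strand). Replicate 1 was highest and replicate 2 lowest, a 2.88-fold range. Its relative Insig2 was at 8.39, 7.95 and 5.95 TPM, below Insig1 in every library, by 3.93 ± 0.76 (SD, n = 3) in log2(TPM + 1). The kallisto-type table gave a smaller difference, 2.32 ± 0.61 (SD, n = 3). Scap was measured at 16.3, 14.6 and 14.5 TPM, a narrow range. Srebf2, whose protein favours sterol genes, was also steady at 48.1, 41.1 and 46.9 TPM. Srebf1 was at 50.9, 77.6 and 77.2 TPM, above Srebf2 in each library, but in replicate 1 by only 0.08 in log2(TPM + 1).

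The fatty acid enzymes differed most among themselves. Fasn, fatty acid synthase, was at 15.0, 27.9 and 25.7 TPM, lowest in replicate 1. Scd2, one of the stearoyl-CoA desaturases, was at 4.47, 5.34 and 8.77 TPM, on 136, 244 and 399 counts. The neighbouring gene Scd1, an SREBP and LXR target known from liver and fat, had 1, 3 and 2 counts, at or below the floor of 3 counts in each library. The kallisto-type table gave it 4, 5 and 4 counts. It held 6 of the 785 counts of both genes, or 0.764% (exact 95% interval 0.281% to 1.66%, counting error only, not corrected for length). Adipocyte markers had no counts and hepatocyte markers at most 0.364 TPM summed. The kallisto-type table gave sums of 1.18, 1.53 and 1.70 TPM for adipocyte and 0.891, 0.502 and 0.890 for hepatocyte markers. In bulk RNA, fewer cells of a type and less RNA per cell cannot be told apart.

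The 2 Srebf1 starts shown above, here called upstream and downstream, lie 10156 nt apart on chromosome 11. As background, the upstream first exon gives SREBP-1a, the form with the longer activation domain, and the downstream one SREBP-1c, the form that LXR induces. Transcripts annotated within 100 nt of the upstream start held 319, 760 and 666 counts in the RSEM-type table, and those of the downstream start 6, 37 and 47. The upstream start thus took 98.0%, 95.4% and 93.4% of the counts of both starts (95.6% ± 2.33, SD, n = 3). In the kallisto-type table it took 82.0%, 79.8% and 75.3% (79.0% ± 3.39, SD, n = 3). Both tables put the upstream start ahead in every library, and they differ on how much downstream transcript there was. Another 9 annotated transcripts begin elsewhere and are left out of these shares. They held 26.6%, 23.1% and 29.3% of all Srebf1 counts, and 34.9%, 28.0% and 32.2% in the kallisto-type table. Among them a coding transcript that begins further downstream, at position 60207188, had 10, 0 and 77 counts, and the transcript of the outermost start 0, 4 and 0. The kallisto-type table gave 13, 29 and 44 counts for the former and 19, 23 and 24 for the latter. These are model assignments of reads that the transcripts largely share. The upstream transcript is annotated to position 60199089, and the downstream coding transcript ends earlier, at 60200463. Reads past that end cannot be assigned to the downstream start, whichever start they came from, and this favours the upstream share. Srebf1 exons also overlap those of Rai1 on the opposite strand (1137, 2249 and 2107 counts), and neither labels nor headers give the strand setting of the counts.

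**Figure D2:**
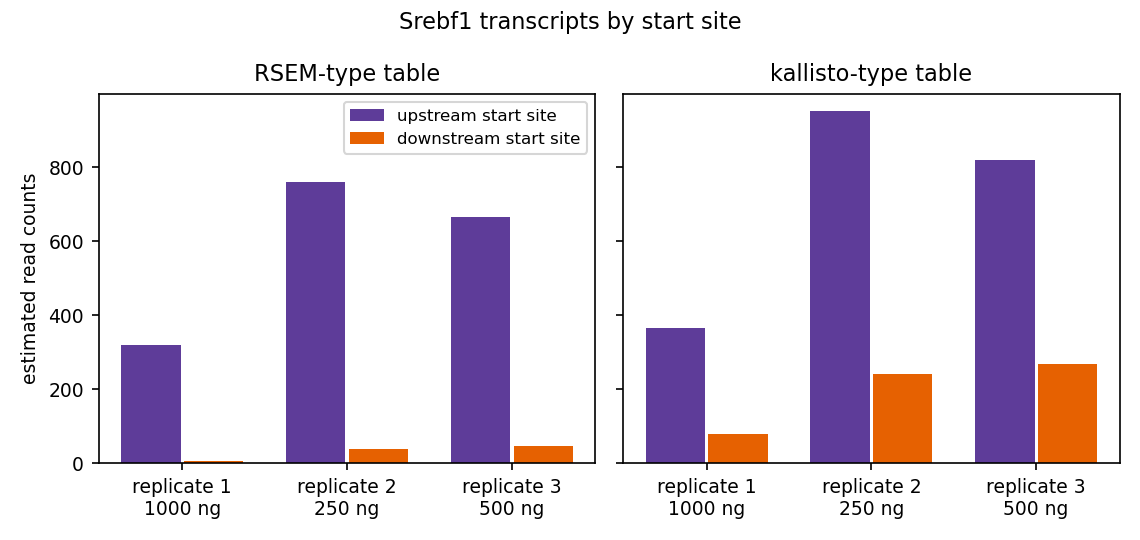
Estimated read counts on Srebf1 transcripts of the upstream and the downstream start site in each library, in the RSEM-type and the kallisto-type table. The upstream bars are the taller in all 3 libraries of both tables, and the downstream bars reach 47 counts in the first and 269 in the second.

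Chromatin RNA can hold incompletely spliced transcripts, and several members had most of their counts on transcripts annotated as retained introns. The share was computed for 22 members that have such a transcript and at least 50 counts. A further 10 have none annotated, among them Abca1, Mylip and Srebf1, and Ebp had too few counts. The median over the 22 was 17.1%, beside 26.3% over 6733 genes with such a transcript. A share above 50% was found in 5 of the 22, or 22.7%, beside 25.5% of all such genes, so the members were near the background.

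Of the 8 squalene-branch enzymes measured 4 had means above 50% and 4 were low. Sqle had 80.2%, 74.8% and 75.8% of its counts on such transcripts (77.0% ± 2.88, SD, n = 3). Msmo1 had 82.2%, 67.2% and 68.5%, Lss 82.6%, 77.5% and 51.5%, and Tm7sf2 67.7%, 56.8% and 51.7%. All 4 were above 50% in each library. The other 4 had means of 11.7% (Dhcr7), 7.41% (Cyp51), 4.74% (Nsdhl) and 0.593% (Fdft1). By counts the LXR and efflux arm was split: Nr1h3 had 65.0%, 63.5% and 70.2%, and Nr1h2 53.3%, 46.0% and 43.8%, whereas Abcg1 had 12.7%, 13.9% and 13.4%. Fasn had 2.08% ± 0.747 (SD, n = 3) and Stard4 4.68% ± 0.415. The kallisto-type table gave 36.4% ± 1.73 for Stard4 and 59.7% ± 9.75 for Mvk, against 34.7% ± 4.72 for Mvk in the RSEM-type table. Other shares moved with the table too, in both directions. From the RSEM-type to the kallisto-type table, the mean went from 58.7% to 82.2% for Tm7sf2 and from 70.5% to 87.8% for Lss. It went from 12.8% to 27.8% for Insig2, from 47.7% to 54.0% for Nr1h2 and from 66.2% to 56.9% for Nr1h3. Insig1 had 22.6% ± 2.67 (SD, n = 3) and Hmgcs1 19.9% ± 2.77. Shares of TPM, which weight short transcripts more than shares of counts do, were higher for several members: 57.6% for Insig1, 42.1% for Abcg1, 36.6% for Cyp51, 23.3% for Stard4 and 20.8% for Fasn. For Nr1h2 the share of TPM was 40.1%, below that of Abcg1, and for Nr1h3 it was 66.5%. It was 51.5% for Msmo1 and 42.9% for Tm7sf2, so a low or high share holds only on its scale.

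**Figure D3:**
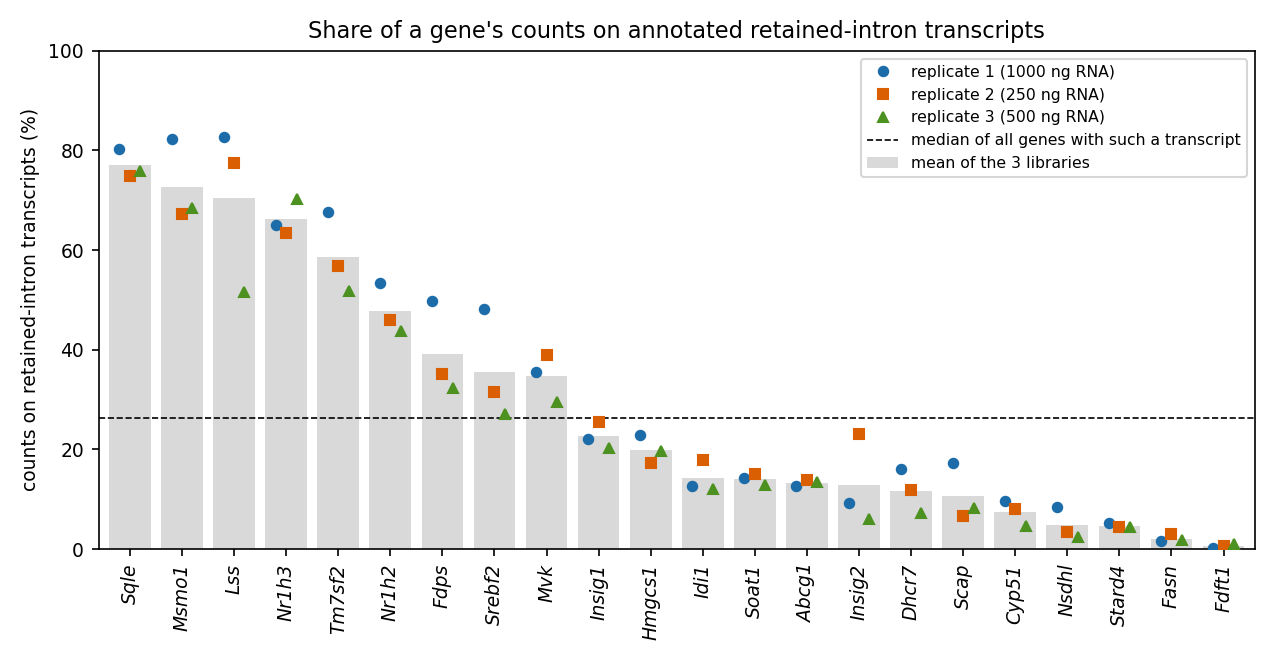
Percent of each gene's counts on transcripts annotated as retained introns, by library (points) and as the mean (bars), for the 22 members with such a transcript and at least 50 counts. Sqle, Msmo1, Lss, Nr1h3 and Tm7sf2 have means above 50%, and the dashed line is the median of all such genes, 26.3%.

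The labelled RNA amount is the only recorded difference between the libraries, and the main fit on it called 4 members. Among these Insig1 alone kept its call under 7 of 7 alternative settings. RNA amount and whatever else set the 3 libraries apart cannot be told apart, and the fit leaves 1 residual degree of freedom. Of the 31 members with enough counts to test, 2 were called higher with more RNA, Insig1 and Stard4, and 2 lower, Fasn and Srebf1, at an adjusted p under 0.05 in edgeR's quasi-likelihood test. These 4 are 12.9% of 31, beside 7.80% of all 14108 genes tested (4.71% higher and 3.09% lower). Ebp and Scd1 were not tested. DESeq2 called 2 of the 20 members that it gave an adjusted p, beside 4.36% of 8311 genes. The kallisto-type counts gave 1 of 32 members, beside 2.19% of 22970 genes. Without a count filter edgeR called 5 of 33 members, beside 4.84% of 24386 genes. With RLE size factors, genes of at least 300 nt, a filter set by the design and no ribosomal DNA locus genes, edgeR called 3, 4, 3 and 3 members. The shares over the genes tested in each were 7.24%, 7.38%, 4.38% and 6.87%. The values are log2 changes per doubling of RNA, and their median was -0.02 over the members and -0.01 over all genes.

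Insig1 rose by 0.65 ± 0.14 (SE) per doubling, or 1.56-fold, with an edgeR adjusted p of 0.00201. Its 3 libraries were in the order of RNA amount in TPM, as were those of 39.3% of genes at 1 TPM or more. The reverse order was found in 11.6% of those genes, so the order alone is common. Any 2 libraries of Insig1 gave the same sign (0.48 to 0.82). The call was kept under 7 of 7 alternatives, with adjusted p from 0.00214 to 0.0375. Stard4 rose by 0.56 ± 0.16 (SE), with an edgeR adjusted p of 0.0228, and was kept under 5 of 7 (0.0221 to 0.0965), not with DESeq2 or the kallisto-type counts. Both kept their call in a refit without the genes of the ribosomal DNA locus, with adjusted p of 0.00386 for Insig1 and 0.0311 for Stard4.

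Fasn fell by 0.63 on the log2 scale (SE 0.16, edgeR adjusted p 0.0106), and Srebf1 fell by 0.48 (SE 0.15, adjusted p 0.0483). Both rest on replicate 1: without it the values were -0.02 for Fasn and -0.08 for Srebf1, and without replicate 2 they were -1.26 and -0.88. Replicate 1 is also the library with 8.59% of counts in the ribosomal DNA locus, and in the refit without those genes Fasn kept its call (adjusted p 0.0183, range over alternatives 0.00562 to 0.0719) while Srebf1 passed just over the threshold (adjusted p 0.0575, range 0.0491 to 0.138) with the same value, -0.48. Srebf1 kept its call under 1 of 7 alternatives and Fasn under 6.

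**Figure D4:**
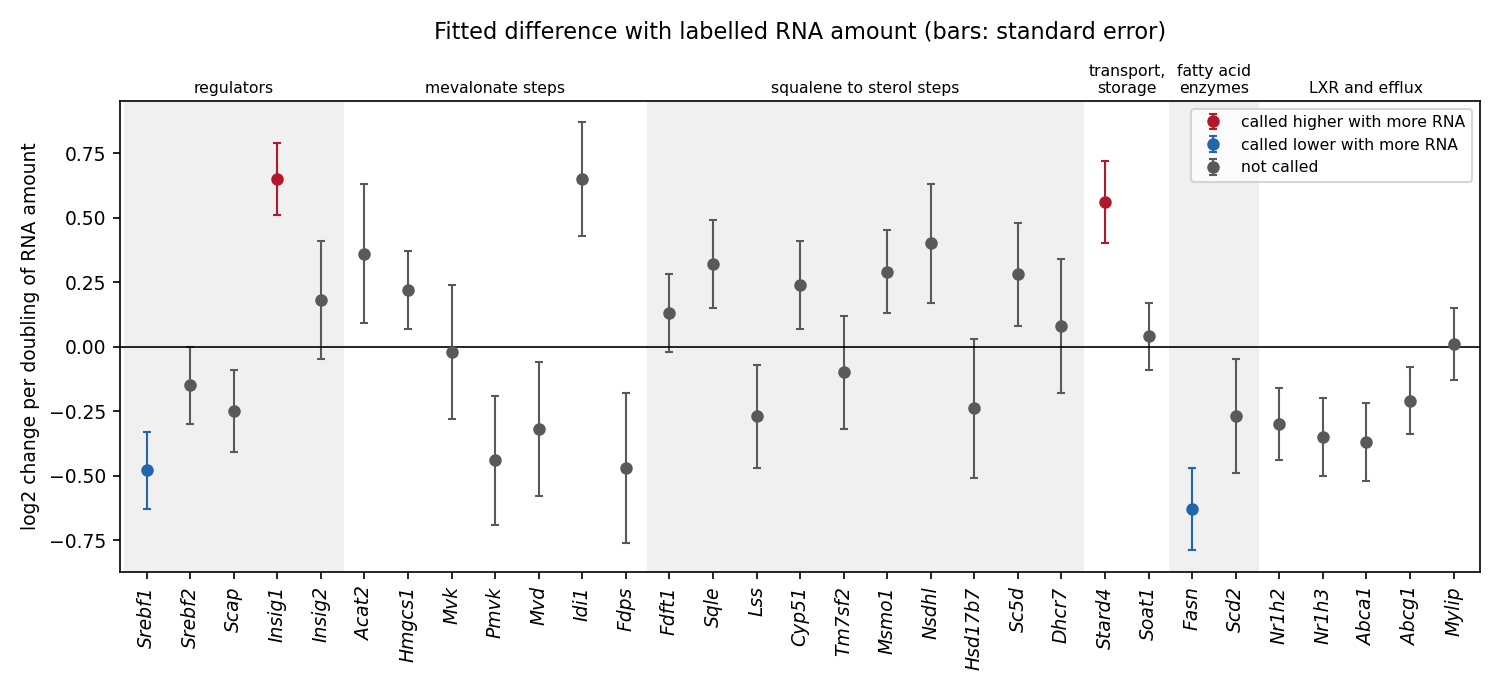
Fitted log2 change per doubling of the labelled RNA amount, with its standard error, for the 31 tested members by role. Insig1 (0.65) and Stard4 (0.56) are called higher, Fasn (-0.63) and Srebf1 (-0.48) lower, and the enzymes lie on both sides of 0.

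None of the 17 sterol enzymes tested was called by edgeR or, among the 7 that it gave an adjusted p, by DESeq2. One had an unadjusted p under 0.05, Idi1, at 0.65 ± 0.22 (SE) per doubling with an edgeR adjusted p of 0.0539, and it was called with no count filter (adjusted p 0.0419, range over alternatives 0.0419 to 0.241). The fitted value was above 0 in 10 of the 17 and below in 7, with a median of 0.13. Those of Fdps (-0.47 ± 0.29, SE) and Pmvk (-0.44 ± 0.25) were lowest, and that of Nsdhl was 0.40 ± 0.23. For 10 of the 17 the sign turned when 1 library was left out. Fdps was 0.68 without replicate 1 and -1.75 without replicate 2, and Nsdhl was -0.10 without replicate 2.

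In the LXR and efflux arm edgeR and DESeq2 called none of 5. The unadjusted p was under 0.05 in 3, all with values below 0: Abca1 (-0.37 ± 0.15, SE), Nr1h3 (-0.35 ± 0.15) and Nr1h2 (-0.30 ± 0.14), with edgeR adjusted p of 0.113, 0.143 and 0.193. Over all genes tested 23.2% had an unadjusted p under 0.05. Without replicate 2 the value of Nr1h3 was 0.19 and without replicate 1 it was -0.89, whereas Abca1 and Nr1h2 stayed below 0 with any 1 library left out. Abca1 was called with no count filter (adjusted p 0.0272, range over alternatives 0.0272 to 0.223). Whether enzymes and efflux genes differ in their change with RNA amount was not tested.

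Of 40 other genes of the pathway, listed by function, 35 were at 1 TPM or more. The highest were in cholesterol uptake and handling and among the corepressors. Lrp1, a large endocytic receptor, was at 430, 853 and 694 TPM. The nuclear receptor corepressor Ncor1 had a mean of 396 TPM, and Cyp27a1, which makes an oxysterol that activates LXR, 305 TPM. Plin2, which coats lipid droplets, was at 166, 458 and 198 TPM, highest in replicate 2. Gramd1b and Gramd1a, carriers that bring plasma membrane cholesterol to the endoplasmic reticulum, had means of 189 and 157 TPM. At the other end Ch25h, which makes another oxysterol, had 1, 0 and 0 counts, the receptor Vldlr 2, 1 and 2, and malic enzyme Me1 3, 5 and 0.

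Of the 36 tested, edgeR called 2 lower with more RNA, or 5.56%, and none higher. Over all 14108 genes tested it called 3.09% lower and 4.71% higher, or 7.80% in either direction. Plin2 fell by 0.91 per doubling on the log2 scale (SE 0.13, edgeR adjusted p 6.53e-06) and Lrp1 by 0.75 (SE 0.16, adjusted p 0.00213), and each kept its call under 7 of 7 alternatives. By group, the calls were 0 of 8 for SREBP processing and enzyme turnover, 0 of 11 for fatty acid and lipid synthesis, 2 of 11 for uptake, handling and oxysterols, and 0 of 6 for LXR partners and corepressors. In the groups with no call, DESeq2 called none either, among the 7, 8 and 6 genes that it gave an adjusted p. In the same groups edgeR's unadjusted p was under 0.05 in 0, 1 and 2 genes respectively. Over all genes tested edgeR's unadjusted p was under 0.05 in 23.2%.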

How the data were processed

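The data are 3 libraries of chromatin RNA in 1 group; group, replicate and RNA amount come from the labels. The authors deposited, per library, gene and transcript tables with expected counts and TPM under RSEM's column names, and a transcript table with estimated counts and TPM under those of kallisto, per the file headers. Per the deposited readme files, they refer to mm10 and GENCODE M21. Aligner, tool versions, read filters and strand setting: not given in the sources.

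TPM were recomputed from the deposited expected counts over genes averaging 300 nt or more, which leaves out small RNAs, tRNA and spike-in entries. Level differences use log2(TPM + 1). The members, lists and tests were chosen with earlier results of these data known, and every member was named. Of the other pathway genes the 6 highest, the 3 lowest and every called one were named. 1 listed symbol was not found. RNA amount was fitted over all genes in R 4.3.3 with the quasi-likelihood F test of edgeR 4.0.16, after TMM scaling and filterByExpr, on counts rounded to whole numbers, with Benjamini-Hochberg adjustment. The SE was derived from the F statistic. The TMM factors were 1.11, 0.931 and 0.963 for replicates 1, 2 and 3. The fit was tested on simulated data with 200 genes changed by 1 log2 unit per doubling. It found 197 of them, with 8 false calls, when the dispersion was 0.02 (14332 genes tested), and 37, with 2 false calls, when it was 0.1 (14021 genes). No member had a fitted value as large as 1, and recovery of smaller changes was not simulated. The common biological coefficient of variation was 0.165.

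A retained-intron share is the part, in percent, of the RSEM transcript counts of a gene that falls on transcripts of that annotated type. Levels, shares and fits were repeated with the kallisto-type table, and levels with the deposited TPM, CPM, a pseudocount of 0.1 and medians. Shares were repeated with count minimums of 10 and 200, and the fit with DESeq2 1.42.0, RLE size factors, no count filter and genes of at least 300 nt. Each replicate was left out in turn. Added after seeing the data were filterByExpr with the design and leaving out genes of the ribosomal DNA locus. Intervals and floors (3 counts) cover counting error only. Exons of 11 members overlap those of another gene, 7 of them a gene on the opposite strand, such as Fdft1 and Ctsb, and their counts are uncertain to that extent.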

Additional observations from a re-analysis of the deposited data

How the results depend on the processing

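With 3 libraries of 1 group, the fit on RNA amount has 1 residual degree of freedom, and leaving out a library gives a value with no test. No paired analysis was possible because there is only 1 group. DESeq2 called 1 member higher and 1 lower, and the kallisto-type counts 1 and 0, where edgeR called 2 and 2. With RLE size factors, filterByExpr with the design, or no ribosomal DNA locus genes, 1 member was called lower and 2 higher. The sign turned with the kallisto-type counts in 4 members that were not called: Insig2 (-0.12), Fdft1 (-0.01), Dhcr7 (-0.03) and Mylip (-0.01). With 1 replicate left out it turned in 14 of the 31 tested members, none of them called: 10 sterol enzymes, Srebf2, Soat1, Scd2 and Nr1h3. Over all genes, edgeR called 1101 of 14108 and DESeq2 362 of the 8311 that it gave an adjusted p. The calls were 503 of 22970 with the kallisto-type counts and 661 of 15077 with filterByExpr with the design.

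The median member was at 4.66 TPM by the deposited values, which include small RNAs in the total, and at 15.9 in the kallisto-type table. Without 1 replicate it was 12.7 to 13.9, with 32 members at 1 TPM or more each time. The enzyme minus efflux difference was -3.35 with deposited TPM, -4.78 with CPM, which ignores length, and -3.13 as a difference of medians. Without 1 replicate it ranged from -3.71 to -3.49. The median retained-intron share was 38.9% as a share of TPM, 25.7% in the kallisto-type table and 19.9% with a minimum of 10 counts. Without 1 replicate it was 16.7% to 18.1%. The 2 tables differed most in level for Dhcr7 (2.90-fold higher in the kallisto-type table), Stard4 (2.53) and Insig2 (2.38). The cause of these shifts was not tested.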
